A study of Caenorhabditis elegans with 16 samples.

Results

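The genes described here are 10 stress chaperone genes of C. elegans, chosen by name: the small heat shock genes hsp-16.1, hsp-16.2, hsp-16.11, hsp-16.41, hsp-16.48, hsp-16.49, hsp-12.3, hsp-12.6 and sip-1, and hsp-70, which encodes a member of the larger HSP70 family. Of the 10, 9 had a row in the table of normalized counts, which holds 29351 genes, and all 10 had a row in the table of FPKM (fragments per kilobase of transcript, scaled to the mapped fragments), which holds 19510 genes. Values of hsp-16.1 were therefore read from the FPKM table only. RNA-seq had been done on 16 samples of whole adults at adult day 1, in 4 groups of 4 replicates. Wild type (N2) worms and rnp-6(G281D) mutants, which carry the hypomorphic allele rnp-6(dh1127) in the ortholog of the human splicing factor PUF60, were each fed the E. coli strain OP50 or the K12-type strain BW25113. Worms of every group were grown for 3 days at 20 °C. The mutant is represented by 1 allele, and the sources used here do not say whether replicates were separate cultures or what a replicate number marks, so p-values measure only the spread between these samples.

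Small heat shock proteins carry an α-crystallin domain and bind unfolding proteins without using ATP, which keeps them from aggregating until HSP70 machines can refold them. In C. elegans the hsp-16 genes and the inducible hsp-70 are nearly silent in unstressed worms and are switched on by the heat shock factor HSF-1, which makes them common reporters of heat and proteotoxic stress. The genes of 12-kDa proteins, hsp-12.3 and hsp-12.6, are not classical heat-inducible genes. hsp-12.6 is known as a target of the FOXO factor DAF-16, and sip-1 encodes a small heat shock protein of oocytes and embryos.

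By position in WBcel235, 6 of the 10 genes form divergent pairs. hsp-16.2 (V:1804334-1804957, minus strand) and hsp-16.41 (V:1805178-1805875, plus strand) are separated by 220 bases. hsp-16.1 (V:9087293-9087782, minus strand) and hsp-16.48 (V:9088131-9088617, plus strand) are separated by 348 bases. hsp-16.49 (V:9089280-9089766, minus strand) and hsp-16.11 (V:9090077-9090604, plus strand) are separated by 310 bases, and these last pairs are inverted copies of each other. hsp-12.3 (IV:9444791-9445507) and hsp-12.6 (IV:9446229-9447228) lie on the minus strand, 721 bases apart. sip-1 (III:10506106-10506801) and hsp-70 (I:9320325-9322519) stand alone on the minus strand of their chromosomes.

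The copies could not be told apart in the tables. hsp-16.48 and hsp-16.49 had the same normalized count in each of the 16 samples, a difference of 0, and their FPKM ratio ran from 0.9963 to 1.003. They are treated here as 1 measurement under 2 names. The FPKM of hsp-16.1 was 1.073 to 1.08 times that of hsp-16.11 in every sample. The current annotation gives hsp-16.11 the symbol hsp-16.1 and hsp-16.49 the symbol hsp-16.48, so how reads were shared between these copies stays uncertain and only the movement of each pair can be read.

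Levels per length differed by orders of magnitude among the genes. sip-1 had a mean of 958 FPKM over the 16 samples and ranked 103 of 19510 genes. The copied hsp-16 genes followed, with means of 52.0 FPKM for hsp-16.49, 51.9 for hsp-16.48, 40.9 for hsp-16.1 and 37.9 for hsp-16.11. The other genes were low, with mean FPKM of 3.10 for hsp-16.2, 2.68 for hsp-70, 2.25 for hsp-16.41, 2.13 for hsp-12.3 and 1.45 for hsp-12.6. The lowest sample of sip-1, at 846 FPKM, was above the highest value of any other gene in the set, 157 FPKM. Within the copied hsp-16 genes, and within the 5 low genes, the ranges over samples overlapped. hsp-16.48 was above hsp-16.1 in 16 of 16 samples. hsp-16.1 was also above hsp-16.11 in 16 of 16, but at the nearly fixed ratio of copies that could not be told apart. That count is therefore not read as an order of expression. hsp-16.2 was above hsp-70 in 8 of 16, hsp-70 above hsp-16.41 in 13 of 16 and hsp-16.41 above hsp-12.3 in 5 of 16.

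The normalized counts had totals of 36330390 to 38381707 per sample. From the smallest steps between values, 1 read was worth about 1 normalized count, and depth was estimated at 32580000 to 48200000 reads per sample. The lists of marker genes for intestine, muscle, neurons, hypodermis, germline, oocytes, sperm and embryos had no gene at 0 in all samples.

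Each heat-inducible gene had its highest value in replicate 4 in at least 3 of the 4 groups. In rnp-6(G281D) on BW25113 only hsp-16.41 did, and replicate 3 was highest for the others. By FPKM, hsp-16.2, hsp-16.41 and hsp-70 were low. The copied hsp-16 genes stood above them in every sample and were not silent in any. hsp-16.2 had normalized counts of 31.9, 50.2, 31.4 and 425 in wild type replicates 1 to 4 on OP50. In rnp-6(G281D) on OP50 its values were 35.3, 37.3, 40.6 and 118. On BW25113 they were 25.5, 36.6, 52.5 and 154 in wild type and 57.1, 46.7, 89.9 and 84.3 in rnp-6(G281D). Replicate 4 thus stood above the other 3 in every group but the mutant on BW25113, where replicate 3 was slightly higher, and the 4 groups overlapped.

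**Figure D1:**
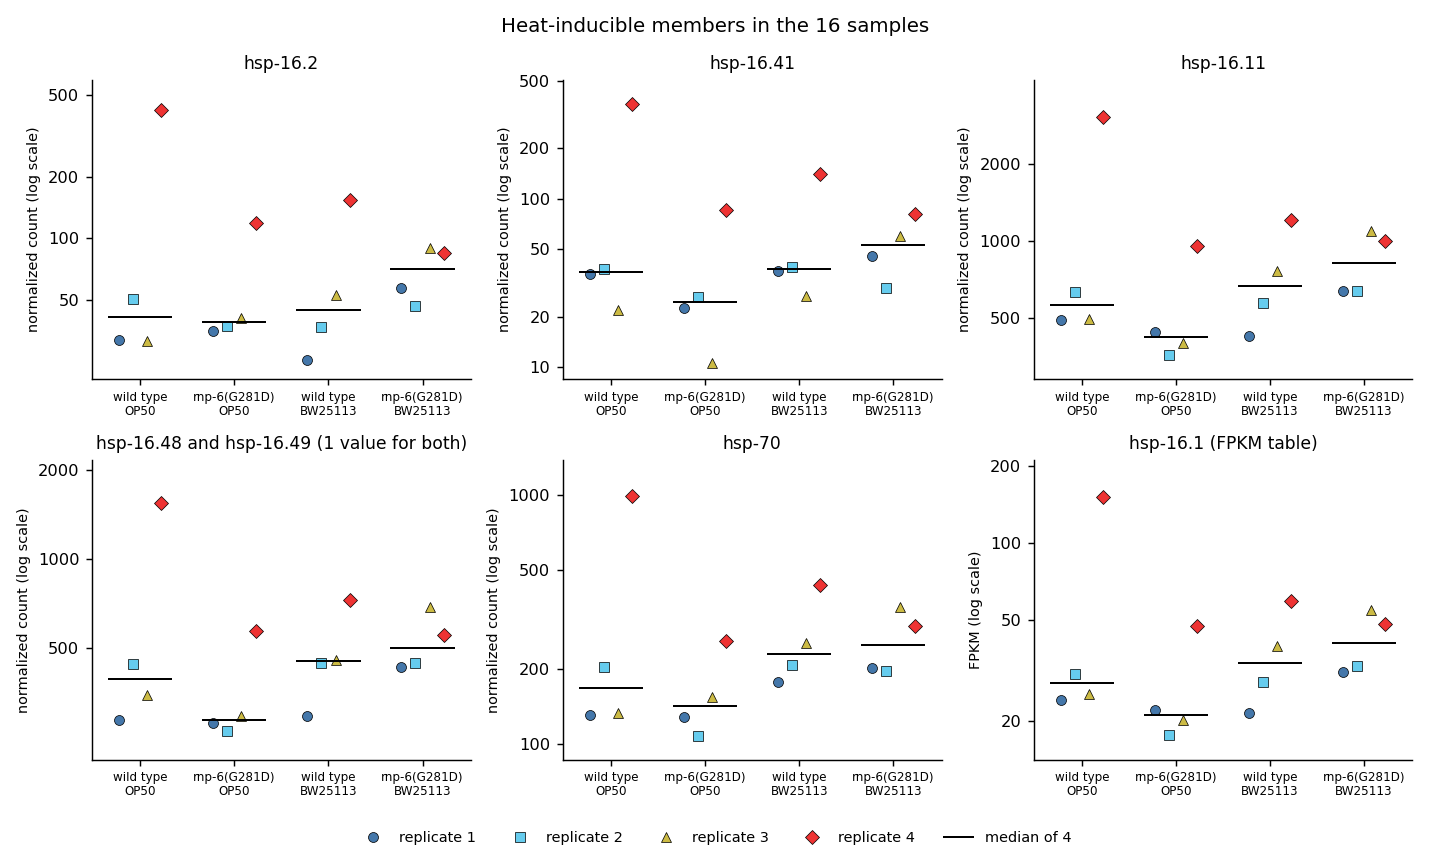
Normalized count (log scale) of the heat-inducible genes in each of the 16 samples, by genotype and diet, with FPKM for hsp-16.1. Each point is 1 replicate, its colour and shape give the replicate number, and the line is the median of 4. In wild type on OP50 replicate 4 was the highest sample of the series for each gene shown, at 425 for hsp-16.2 and 3032 for hsp-16.11.

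hsp-16.41, the divergent partner of hsp-16.2, had normalized counts of 35.5, 38.4, 21.7 and 361 in wild type on OP50 and 22.5, 26.2, 10.6 and 85.5 in the OP50-fed mutant. With BW25113 the values were 37.1, 39.5, 26.3 and 140 in wild type and 45.5, 29.6, 60.3 and 81.4 in the mutant. It was the only gene of the set with its highest value in replicate 4 of all 4 groups. Over all 15799 genes tested, replicate 4 was highest in all 4 groups for 96 (0.608%) and in at least 3 groups for 1002 (6.34%).

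hsp-16.11 was higher in level and moved in the same samples. Its normalized counts were 492, 633, 495 and 3032 in wild type on OP50 and 442, 360, 398 and 957 in the OP50-fed mutant. With BW25113 they were 427, 573, 762 and 1200 in wild type and 639, 638, 1088 and 995 in the mutant. In the FPKM table its copy hsp-16.1 had a mean of 57.8 ± 62.1 (SD, n = 4) in OP50-fed wild type and 26.9 ± 13.8 in the OP50-fed mutant, and means of 37.1 ± 16.45 and 41.7 ± 11.5 with BW25113 in wild type and mutant. An SD above the mean in the first group came from replicate 4, at 151 FPKM against 24.2 to 30.6 in the other 3.

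The shared measurement of hsp-16.48 and hsp-16.49 gave 285, 440, 346 and 1547 normalized counts in wild type on OP50 and 277, 261, 294 and 569 in the OP50-fed mutant. With BW25113 it gave 294, 446, 454 and 724 in wild type and 431, 442, 689 and 552 in the mutant. The same 3 groups were led by replicate 4, and in the mutant on BW25113 replicate 3 was highest.

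hsp-70, the inducible cytosolic HSP70, had normalized counts of 131, 204, 134 and 988 in wild type on OP50 and 129, 108, 155 and 260 in the OP50-fed mutant. With BW25113 its values were 179, 208, 254 and 436 in wild type and 202, 196, 356 and 300 in the mutant. Although it lies on another chromosome and belongs to another protein family, it was high in the samples in which the hsp-16 genes were high.

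Relative to the median of replicates 1 to 3, replicate 4 of wild type on OP50 was 13.3 times as high for hsp-16.2, 10.2 times for hsp-16.41, 7.38 times for hsp-70, 6.12 times for hsp-16.11 and 4.47 times for hsp-16.48 and hsp-16.49. In rnp-6(G281D) on OP50 the same ratio was 2.02 to 3.79, in wild type on BW25113 it was 1.62 to 4.21, and in the mutant on BW25113 it was 1.25 to 1.79. Only 20 of the 15799 genes with a mean count of at least 10 (0.127%) had a ratio of 4 or more, with 1 added to each value, in wild type on OP50. These 20 included the 6 heat-inducible genes of the count table and the HSP70 genes F44E5.4 and F44E5.5. For wild type, replicate 4 had the largest estimated depth of its group with either diet: 45020000 reads (OP50) and 43900000 reads (BW25113). For the mutant, replicate 4 had 32580000 reads (OP50), the smallest depth of the series, and 35740000 reads (BW25113), inside the range of its group. The part of depth in these ratios was not tested.

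**Figure D2:**
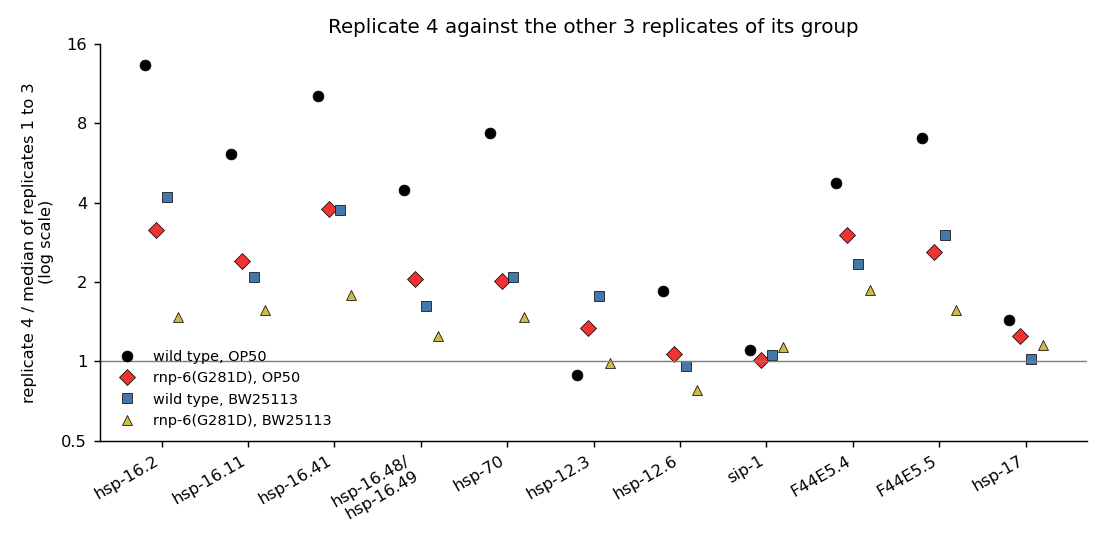
Ratio (log scale) of the normalized count in replicate 4 to the median of replicates 1 to 3 of the same group, for 8 separate measurements of the set and 3 related genes; each point is 1 group. The hsp-16 genes, hsp-70, F44E5.4 and F44E5.5 lay above 1 in all 4 groups, as did hsp-17 (1.02 to 1.43) and sip-1 (1.01 to 1.13).

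The replicate number was tested as a term beside the 4 groups in a limma fit of all 16 samples, a test chosen after these values were seen. At an adjusted p under 0.05, 562 of 15799 genes passed (3.56%), and among the set 6 of 9 passed. The adjusted p was 0.0066 for hsp-16.41, 0.0177 for hsp-16.2, 0.0197 for hsp-16.11, 0.0369 for hsp-16.48 and hsp-16.49 and 0.048 for hsp-70. It was 0.154 for sip-1, 0.172 for hsp-12.6 and 0.497 for hsp-12.3. On the log2 scale the mean deviation of replicate 4 from its group was 1.61 for hsp-16.41, 1.42 for hsp-16.2, 0.98 for hsp-16.11, 0.94 for hsp-70 and 0.78 for hsp-16.48. The genes were not the most extreme of the series in this test, with ranks of 156 to 544.

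Over the 16 samples the 5 separate heat-inducible measurements correlated with each other at r = 0.885 to 0.986 on log2 normalized counts, and at 0.874 to 0.985 once each group mean was removed. With hsp-12.3, hsp-12.6 and sip-1 they correlated at -0.055 to 0.293 over the 16 samples and at 0.061 to 0.739 within groups. The upper end of the last range belonged to sip-1, which was highest in replicate 4 of 3 groups (6.34% of all genes were so in at least 3). Within groups sip-1 correlated at 0.607 to 0.739 with the hsp-16 genes and at 0.617 with hsp-70. These are descriptions over samples that share libraries, and wild type replicate 4 on OP50 is 1 of the points. The genes outside the set whose pattern was most like that of hsp-16.2 were F44E5.5 (r = 0.934, 0.951 within groups), F44E5.4 (0.932, 0.959 within groups) and the nuclear hormone receptor gene nhr-17 (0.864, 0.885 within groups). The same genes were the most like hsp-70, at r = 0.918 for F44E5.4, 0.904 for F44E5.5 and 0.901 for nhr-17.

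To ask whether the mutation changed these genes on OP50, rnp-6(G281D) was compared with wild type in a fit without the replicate number. The call required an adjusted p under 0.05 together with a log2 fold change beyond 0.5 in size. None of the 9 genes in the count table was called by limma, where 11.5% of all 15799 genes tested were, and 1 of 9 (sip-1) had an unadjusted p under 0.05. The fitted differences in log2(count + 1) were below 0 for the heat-inducible genes, with wide errors: -1.05 ± 0.82 (SE, n = 4 and 4 samples) for hsp-16.41, -0.74 ± 0.53 for hsp-16.11, -0.66 ± 0.56 for hsp-70, -0.62 ± 0.46 for hsp-16.48 and -0.44 ± 0.74 for hsp-16.2. Adjusted p ran from 0.342 to 0.708 among them. In whole worms, fewer cells that express a gene and less RNA per cell cannot be told apart.

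Same-numbered samples deviated together across genes in this comparison, at r of 0.197 to 0.299. A block on the replicate number takes out the spread that both genotypes shared. Samples of different number ran from -0.36 to 0.343, the top for mutant replicate 1 with wild type replicate 2. Some of these were as alike as same-numbered samples, so the pairing was assumed and not shown. The blocked fit called 4 of 9 genes lower in the mutant, against 11.9% of all genes in both directions. These 4 are 3 measurements: hsp-16.41 at -1.05 ± 0.26 (limma adjusted p = 0.0141), hsp-16.11 at -0.74 ± 0.20 (adjusted p = 0.0195) and hsp-16.48 with hsp-16.49 at -0.62 ± 0.19 (adjusted p = 0.0322). hsp-70 was at -0.66 (adjusted p = 0.115) and hsp-16.2 at -0.44 (adjusted p = 0.336), and neither was called. The mutant was below its same-numbered wild type in 4 of 4 pairs for hsp-16.11, hsp-16.41, hsp-16.48 and hsp-16.1, in 3 of 4 for hsp-70 and in 2 of 4 for hsp-16.2.

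The widest of these paired differences was in replicate 4 for each of the 5 measurements, from -1.44 for hsp-16.48 to -2.07 for hsp-16.41 in log2 units. For hsp-16.48 the other pairs differed by -0.04, -0.75 and -0.24, and for hsp-16.41 by -0.63, -0.54 and -0.97. Without the samples numbered 4, the blocked fit called no gene of the set on OP50: hsp-16.11 was at -0.43 (adjusted p = 0.0348, inside the fold limit), hsp-16.41 at -0.71 (adjusted p = 0.0821) and hsp-16.48 at -0.34 (adjusted p = 0.101). Without replicate 4 of wild type alone, the unblocked difference turned to 0.43 for hsp-16.2 and to 0.01 for hsp-70, and shrank to -0.18 for hsp-16.41, -0.11 for hsp-16.11 and -0.08 for hsp-16.48. Without replicate 4 of the mutant alone it widened to -1.59, -1.05 and -0.88 for these 3. In the FPKM table hsp-16.1 was at -0.73 ± 0.57 without the block (adjusted p = 0.383) and had an adjusted p of 0.0615 with it, and hsp-16.11 there had the same adjusted p of 0.0615. In that blocked FPKM fit hsp-16.41 alone of the 10 genes was called, against 10.8% of all genes, at -0.91 (adjusted p = 0.0475), and hsp-16.48 had an adjusted p of 0.0927.

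**Figure D3:**
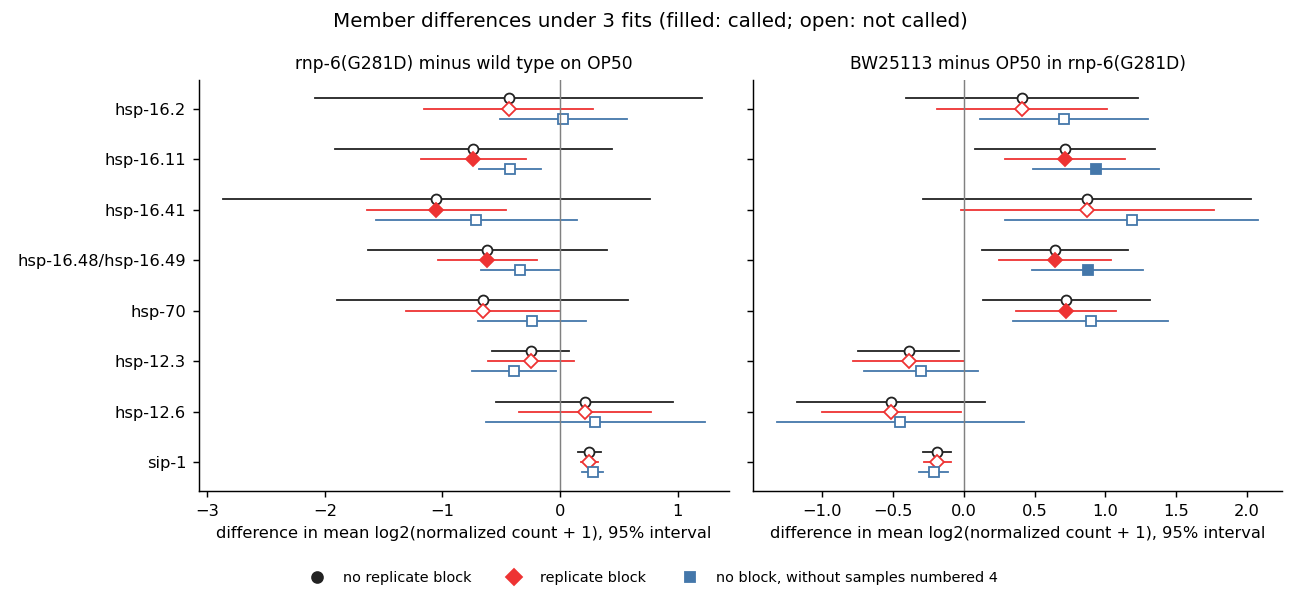
Differences in mean log2(normalized count + 1), with 95% intervals, for 8 separate measurements under 3 fits: no replicate block, replicate block, and no block without the samples numbered 4. Filled points passed both limits of the call. On OP50 the intervals of hsp-16.11, hsp-16.41 and hsp-16.48 held 0 without the block and left it out with the block.

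On BW25113 no difference between the genotypes in these genes passed the test. limma called 0 of 9 genes without the block (5.68% of all genes) and 0 of 9 with it (7.01%). At an unadjusted p under 0.05 there were 0 of 9 without the block and 1 of 9 with it. The differences were 0.35 ± 0.45 for hsp-16.2, 0.24 ± 0.28 for hsp-16.11, 0.19 ± 0.23 for hsp-16.48, 0.07 ± 0.46 for hsp-16.41 and 0.01 ± 0.27 for hsp-70. Leaving out 1 library moved hsp-16.2 between 0.0063 and 0.86 and hsp-16.11 between 0.0156 and 0.51, the upper values without replicate 4 of wild type. Without the samples numbered 4 and with the block, hsp-16.2 was at 0.75 (adjusted p = 0.073) and hsp-16.11 at 0.42 (adjusted p = 0.0177, inside the fold limit). The 95% interval for hsp-70 reached from -0.57 to 0.59, so a change of this size in either direction was not excluded.

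In wild type, changing the bacteria from OP50 to BW25113 gave no call among the 9 genes either, without the block (3.33% of all genes) or with it (4.49%), and 1 of 9 had an unadjusted limma p under 0.05 in each fit. The hsp-16 differences were -0.16 to -0.37 with SE of 0.45 to 0.78, and hsp-70 was at 0.05 ± 0.55. Only hsp-12.3 had an interval that left out 0, at -0.45 ± 0.20 (adjusted p = 0.221). Its normalized counts were 70.2, 86.9, 79.7 and 70.6 on OP50 and 44.8, 54.8, 47.4 and 83.8 on BW25113, where the first 3 samples lay below all on OP50 and replicate 4 did not. Without that sample the difference was -0.64 (adjusted p = 0.0453), which passed.

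In rnp-6(G281D) the heat-inducible genes were higher on BW25113 than on OP50 in most samples. hsp-70 was higher in 4 of 4 same-numbered pairs, at 0.72 ± 0.27 in log2 units, and hsp-16.11 in 4 of 4, at 0.71 ± 0.29. hsp-16.48 was higher in 3 of 4 pairs, at 0.64 ± 0.23. Their adjusted p values were 0.0857, 0.11 and 0.0809, and no gene of the set was called, against 9.36% of all genes. An unadjusted limma p under 0.05 was found for 6 of 9, a limit for which the share of all genes was not counted. These 6 counted hsp-16.48 and hsp-16.49 separately and included hsp-12.3, at -0.39, and sip-1, at -0.19, which were lower on BW25113. hsp-16.41, at 0.87 ± 0.53, and hsp-16.2, at 0.41 ± 0.37, had adjusted p of 0.278 and 0.478.

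In this comparison only 1 of the 4 same-numbered pairs had deviations that correlated above 0.1, at 0.273, and the others were at -0.0632, 0.0512 and -0.0636, so the numbers were not taken to pair the samples. With them as a block nonetheless, hsp-70 (adjusted p = 0.0166), hsp-16.11 (0.0336) and hsp-16.48 with hsp-16.49 (0.0372) were called higher, against 8.71% of all genes. The call also depended on replicate 4 of the mutant on OP50, whose values of 957 for hsp-16.11 and 260 for hsp-70 reached into the range on BW25113. Without it, 5 of 9 genes were called, at 1.03 for hsp-16.11, 1.41 for hsp-16.41, 0.90 for hsp-16.48 and hsp-16.49 and 0.97 for hsp-70. Without all samples numbered 4 and with no block, hsp-16.11 was at 0.93 (adjusted p = 0.0243) and hsp-16.48 at 0.87 (adjusted p = 0.0182), and both were called, while hsp-70 was at 0.90 (adjusted p = 0.0603). hsp-16.1 in the FPKM table was at 0.71 ± 0.30 (adjusted p = 0.133). With the block, the FPKM table gave 1 call among the 10 genes (8.39% of all genes), hsp-70 (adjusted p = 0.0383), and lost hsp-16.11 (0.0659), hsp-16.48 (0.0632) and hsp-16.49 (0.0636).

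The difference between the diet effects of the genotypes was tested directly as an interaction in all 16 samples. None of the 9 genes was called, without the block (2.42% of all genes) or with it (2.99%), and an unadjusted limma p under 0.05 was found for 1 of 9 and 4 of 9. The heat-inducible genes had interaction terms of 0.67 to 1.12 in log2 units with SE of 0.58 to 1.05, and adjusted p of 0.502 to 0.742. A different response to bacteria in the mutant was therefore not shown for them.

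hsp-12.3, hsp-12.6 and sip-1 did not pass the test of the replicate number. hsp-12.3 had normalized counts of 59.5, 57.8, 62.1 and 79.7 in rnp-6(G281D) on OP50 and 43.3, 51.1, 50.9 and 50.1 in the mutant on BW25113. These 2 groups did not overlap, and the difference was -0.39 ± 0.16 (adjusted p = 0.117; exact two-sided permutation p = 0.02857, the smallest that 4 against 4 samples can give). The gene was lower on BW25113 in both genotypes by mean, at 0.751 times the OP50 mean in wild type and 0.754 times in the mutant, and passed the test in neither. By FPKM the difference in the mutant was -0.38 ± 0.08 (limma adjusted p = 0.0101; 0.0306 with the block). It passed the p limit there and not the fold limit.

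hsp-12.6 was the lowest gene of the set and was highest in replicate 3 of all 4 groups. Its normalized counts were 22.5, 17.2, 49.6 and 41.5 in wild type on OP50 and 22.6, 37.03, 43.9 and 39.8 in the mutant on OP50. On BW25113 they were 22.9, 22.1, 32.4 and 22.01 in wild type and 14.1, 30.8, 32.1 and 24.0 in the mutant. Its largest difference was -0.51 ± 0.30 between diets in the mutant (adjusted p = 0.265), where the groups overlapped. The genes most like it over the 16 samples were nhr-120 (r = 0.873), C38H2.3 (0.866) and D2030.2 (0.852), with r of 0.840, 0.867 and 0.841 within groups.

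**Figure D4:**
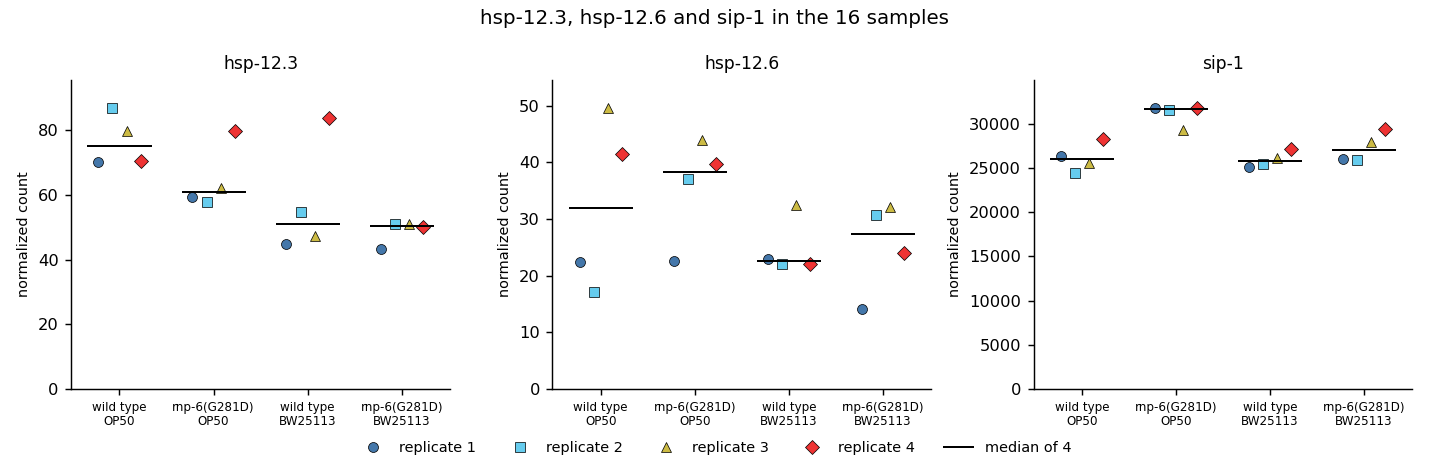
Normalized count (linear scale from 0) of hsp-12.3, hsp-12.6 and sip-1 in the 16 samples, by genotype and diet. Each point is 1 replicate and the line is the median of 4. For sip-1 the 4 mutant samples on OP50, at 29235 to 31775, lay above the 4 wild type samples on OP50, at 24423 to 28241.

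sip-1 varied least and gave the smallest p value of the set. Its normalized counts were 26363, 24423, 25579 and 28241 in wild type on OP50 and 31775, 31551, 29235 and 31718 in rnp-6(G281D) on OP50. The groups did not overlap, and the mean was 1.19 times as high in the mutant, a difference of 0.25 ± 0.04 in log2 units (limma adjusted p = 0.00149; 0.000323 with the block). It passed the p limit and not the fold limit of 0.5, so it was not called. On BW25113 the values were 25043, 25449, 26084 and 27076 in wild type and 26021, 25852, 27909 and 29402 in the mutant, which overlapped, at 0.07 ± 0.04 (adjusted p = 0.283). Within the mutant sip-1 was lower on BW25113 by -0.19 ± 0.04 (adjusted p = 0.0159), again inside the fold limit. The interaction was -0.18 ± 0.07, with an adjusted p of 0.152 without the block and 0.0407 with it, inside the fold limit.

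Since sip-1 is an oocyte and embryo gene, markers of those cells are given beside it. On OP50, 0 of 11 oocyte and eggshell markers were called between genotypes (11.5% of all genes), and 4 of 11 had an unadjusted limma p under 0.05. Like sip-1, perm-4, an eggshell gene, was higher in the mutant and inside the fold limit, at 0.26 ± 0.03 (adjusted p = 0.000244), and puf-5 was at 0.12 ± 0.03 (adjusted p = 0.018). The median of the list was 0.04, beside 0.00 over all genes tested, and its summed normalized count was 316408 to 321455 in wild type and 318456 to 332050 in the mutant. Of 9 zygotic embryo markers tested, 5 were called lower in the mutant, also against 11.5% of all genes, with sums of 1119 to 1446 in wild type and 614 to 787 in the mutant. Of 8 larval molt markers 5 were higher. In the mutant, 8 of 9 sperm markers were lower and 3 of 9 embryo markers higher on BW25113 than on OP50, against 9.36% of all genes. The part of these in the sip-1 difference was not tested. The genes most like sip-1 were acs-13 (r = 0.907), rab-11.1 (0.890) and lgmn-1 (0.889), with r of 0.686, 0.672 and 0.514 within groups.

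The rest of the cytosolic chaperone system was examined in lists of related genes. Of 8 other small heat shock genes tested, 1 was called higher in the mutant on OP50, a share near the 11.5% called over all genes. This was hsp-17, at 555, 660, 584 and 833 normalized counts in wild type and 1308, 1402, 1422 and 1759 in the mutant on OP50, a difference of 1.17 ± 0.12 (adjusted p = 6.29e-05). On BW25113 hsp-17 stood at 476, 621, 805 and 634 in wild type and 648, 642, 813 and 744 in the mutant. It fell by 1.05 in the mutant between diets (adjusted p = 4.43e-05), and its interaction of -0.99 ± 0.20 passed the test (adjusted p = 0.00752). The list's median difference on OP50 was 0.19, beside 0.00 over all genes tested. hsp-17 thus moved with genotype and diet in samples in which the hsp-16 genes moved with replicate number, and its own replicate term had an adjusted p of 0.118.

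On BW25113, F08H9.3 was the 1 gene of this list called between genotypes. Its normalized counts were 33.9, 24.99, 33.3 and 22.002 in wild type and 9.75, 8.24, 14.2 and 10.5 in the mutant, a difference of -1.34 ± 0.25 (adjusted p = 0.00511), with no overlap.

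F44E5.4 and F44E5.5, HSP70 genes that neighbour each other, were highest in replicate 4 of all 4 groups. hsp-70 was so in all but the mutant on BW25113, where its replicate 3 was highest. F44E5.4 had normalized counts of 1474, 1773, 912 and 6995 in wild type on OP50 and 821, 671, 984 and 2474 in the mutant on OP50. F44E5.5 had 1105, 1498, 968 and 7794 in wild type and 1210, 904, 733 and 2341 in the mutant on OP50. Neither was called between genotypes without the block (adjusted p = 0.267 and 0.433). With it both were called lower, at -0.91 (adjusted p = 0.00997) and -0.68 (adjusted p = 0.0455), where 11.9% of all genes were called and hsp-70 was not. For each of the 2 genes the mutant was below its same-numbered wild type in 3 of 4 pairs. The third gene of this list, F11F1.1, was not called in any of the 5 comparisons.

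The lists of constitutive chaperones, heat shock regulators and organelle chaperones gave no call. None of 12 genes of the constitutive HSP70 and HSP90 machinery, 8 subunits of the CCT chaperonin, 6 prefoldin subunits, 7 heat shock regulators or 4 organelle chaperones was called in any of the 5 comparisons, with or without the block. Over all genes, 2.42 to 11.5% were called without the block and 2.99 to 11.9% with it. The fold limit set the count for these lists, since none of their differences was beyond 0.5 in size. An unadjusted limma p under 0.05 was found in 76 of these 185 tests of 37 genes without the block and in 89 with it. The share of all genes at that limit was not counted. Of the regulators, hsf-1 was higher in the mutant inside the fold limit, at 0.15 on OP50 (limma adjusted p = 0.00698) and 0.20 on BW25113 (adjusted p = 0.00387). So was ddl-1, at 0.26 on OP50 (adjusted p = 0.00387) and 0.20 on BW25113 (adjusted p = 0.0492). daf-2 was at 0.16 on OP50 (adjusted p = 0.0157) and 0.11 on BW25113 (adjusted p = 0.198). daf-16 was at 0.22 on OP50 (adjusted p = 0.0401) and -0.02 on BW25113 (adjusted p = 0.895). Of the organelle chaperones on OP50, hsp-4 was at 0.41 (adjusted p = 8.49e-05) and hsp-60 at -0.21 (adjusted p = 0.002). On OP50 the median difference between genotypes was -0.05 for the constitutive machinery and -0.06 for CCT. The summed normalized count of the constitutive machinery was highest in replicate 4 of all 4 groups, but by a small margin: in wild type on OP50 it was 361601 in replicate 4, and the lowest of the other samples was 338511.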

How the data were processed

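RNA was extracted from whole worms, and libraries were made with a stranded, ribosomal RNA-depleting kit. Per the labels, the authors quantified reads with kallisto 0.46.1 on WBcel235 and normalized with DESeq2 1.24, and Cufflinks 2.2.1 is also named in the submitters' notes. The deposited normalized counts (signal: counts divided by size factors) were not whole numbers. Of low values, only 46.3 to 77.9% per sample fell within 0.02 of a whole read, so no count test was run. The deposited FPKM values were used for hsp-16.1 and as an alternative. Genes with a mean normalized count of at least 10 (15799) were tested on log2(count + 1) with limma 3.58.1 in R 4.3.3 and Benjamini-Hochberg adjustment, each pair of groups on its own 8 samples and the interaction on 16. A fold change on this scale understates the change of low genes. Pseudocounts were 0.1 for FPKM, and 0.1 and 5 as alternatives. Other alternatives were no filter, a filter at a mean of 100, quantile normalization, equal totals, the FPKM table, a replicate block, a single fit of 16 samples, copies summed and each replicate left out. Leaving out all samples numbered 4, the replicate term and the blocked FPKM fit were chosen after seeing the data. Over 10252 genes, deviations from group means of same-numbered samples correlated at 0.197 to 0.299 (genotypes on OP50), 0.104 to 0.47 (genotypes on BW25113), 0.212 to 0.564 (diets in wild type) and -0.0636 to 0.273 (diets in the mutant). Every pair was over 0.1 in the first 3, so the numbers were taken to pair samples there. This was an assumption, since samples of different number reached 0.343 (genotypes on OP50), 0.269 (genotypes on BW25113) and 0.316 (diets in wild type). On simulated data for genotypes on OP50, 145 of 200 genes changed by 1 log2 unit were called, with 4 false calls among 15799 genes. The changed genes were drawn from all genes tested, with independent noise and no replicate effect. This share is therefore not the power for the heat-inducible genes, whose SE on OP50 was 0.46 to 0.82. All genes of the set are named with their values, related genes where a list's gene was called, and the 3 genes most like hsp-16.2, hsp-70, hsp-12.6 and sip-1 by r. Some genes of the lists that were not called are named as well. Members and lists were chosen with earlier results of these data known. Positions come from Ensembl annotation 115. No counting interval was given, since depth was only estimated.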

Additional observations from a re-analysis of the deposited data

Results flagged for a closer look

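In 8 of 52 combinations of gene and group, 1 of the 4 samples lay far from the other 3 on the log2 scale (a gap beyond Dixon's 95% critical value). Chance would give about 2.6, but the combinations were not independent, so the excess is not a test. The heat-inducible genes moved together, hsp-16.1 and hsp-16.11 are copies, and hsp-17, F08H9.3, F44E5.4 and F44E5.5 from outside the set were included. Replicate 4 was the high sample for hsp-16.11 in wild type on OP50, at 3032 normalized counts against 492 to 633, and for hsp-16.1 there, at 151 FPKM against 24.2 to 30.6. It was also the high sample for hsp-16.2 in rnp-6(G281D) on OP50 (118 against 35.3 to 40.6), for hsp-16.48 and hsp-16.49 in that group (569 against 261 to 294) and for F44E5.5 in wild type on BW25113 (3411 against 1048 to 1234.2). The other 3 were hsp-12.3 in replicate 1 of the mutant on BW25113 (43.3 against 50.1 to 51.1), hsp-12.6 in replicate 3 of wild type on BW25113 (32.4 against 22.01 to 22.9) and sip-1 in replicate 3 of the mutant on OP50 (29235 against 31551 to 31775). Between diets, the effect of genotype on hsp-17 differed by -0.99 log2 units in the interaction test.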

How the results depend on the processing

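Of 816 refits of 45 gene differences, 750 kept direction and side of the limits, 19 became calls and 47 changed sign, mostly differences near 0. The cause was not tested. None of the 45 was called to begin with, so no call could be lost, and the 750 are differences that stayed uncalled. With the replicate block 4 of 9 genes were called on OP50 between genotypes and 4 between diets in the mutant. In the mutant, where the numbers were not taken to pair samples, 3 were called under quantile normalization, 3 without the samples numbered 4, 4 without them and with the block, and 0 to 5 with single replicates left out (5 without replicate 4 on OP50). In wild type 1 gene, hsp-12.3, was called between diets without the samples numbered 4 and with the block, and 0 to 1 with single replicates left out. By FPKM the block added 1 call between genotypes on OP50, hsp-16.41 (10.8% of all genes), and 1 between diets in the mutant, hsp-70 (8.39%). The block changed no other call of the set.

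Of all genes, 1816, 898, 526, 1479 and 382 were called between genotypes on OP50, genotypes on BW25113, diets in wild type, diets in the mutant and in the interaction. A filter at a mean of 100, which tests fewer genes, gave 890, 434, 270 and 792 for the first 4. No filter gave 167 for diets in wild type and 850 in the mutant. Without the samples numbered 4, which leaves fewer samples, 524 were called between genotypes on BW25113 (753 with the block), 166 and 731 between diets in wild type and mutant (510 and 738 with the block) and 221 in the interaction (348 with the block). Leaving out single replicates gave 275 to 544 for diets in wild type, with 275 without replicate 4 on OP50, 280 without replicate 1 on OP50 and 305 without replicate 2 on BW25113.

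With single replicates left out, log2 differences between genotypes on OP50 ran from -0.84 to 0.43 for hsp-16.2, -0.96 to 0.0118 for hsp-70, -1.59 to -0.18 for hsp-16.41, -1.05 to -0.11 for hsp-16.11, -0.90 to -0.08 for hsp-16.48 and -0.0459 to 0.45 for hsp-12.6. On BW25113 they ran from -0.21 to 0.57 for hsp-16.41, -0.0228 to 0.41 for hsp-16.48, -0.16 to 0.27 for hsp-70 and -0.16 to 0.22 for hsp-12.6. Between diets in wild type they ran from -0.88 to 0.50 for hsp-16.2, -0.53 to 0.36 for hsp-16.11, -0.75 to 0.63 for hsp-16.41, -0.44 to 0.37 for hsp-16.48, -0.24 to 0.72 for hsp-70 and -0.0440 to 0.0258 for sip-1. Interactions ran from -0.0885 to 1.295 for hsp-16.2, -0.00223 to 0.97 for hsp-70, -0.0497 to 0.25 for hsp-12.3 and -0.47 to 0.0199 for hsp-12.6. Without the samples numbered 4, with or without the block, hsp-16.2 was at 0.0290 between genotypes on OP50, and between diets in wild type hsp-16.11 was at 0.0912, hsp-16.41 at 0.12, hsp-16.48 at 0.15 and sip-1 at 0.00448. In the FPKM table hsp-70 was at -0.0263 and hsp-12.6 at 0.0117 between genotypes on BW25113, and sip-1 at 0.00584 between diets in wild type.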
